A study of Schizosaccharomyces pombe with 12 samples.

Results

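The transcripts described here are those of the major facilitator superfamily (MFS) membrane transporters of the fission yeast Schizosaccharomyces pombe that the deposited annotation names as such. A gene was a member if its deposited description holds the term MFS, leaving out the hexose transporter (ght) genes, fnx1 and genes whose identifiers begin with certain clone names (among them SPAC11D3 and SPBPB2B2). Of 5160 genes, 5 carried the term, 2 of these had such an identifier, and 3 remained: mfs3 (SPBC36.03c, chromosome II), mfs1 (SPAC17C9.16c, chromosome I) and itr2 (SPAC20G8.03, chromosome I). All 3 passed the filter on low counts. The ght genes and others of this superfamily fall outside the rule, so the 3 genes are not the whole superfamily.

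Messenger RNA of whole cells was sequenced in 12 libraries, with 3 libraries for each of 4 genotypes: wild type (WT) and 3 strains with a changed histone H2B. Lysines 5, 10 and 15 of this histone were exchanged together for alanine (A, genotype H2BK5AK10AK15A), glutamine (Q, H2BK5QK10QK15Q) or arginine (R, H2BK5RK10RK15R). A replicate 2 is labelled H2BK5AK10AK16A, with position 16 in place of 15. Like lysine, arginine is positively charged, while glutamine is uncharged and serves in many histone studies as a stand-in for acetyl-lysine, and alanine has a short uncharged side chain. No growth condition, strain background or treatment is given in the labels, nor do they state whether the replicates were grown separately. The p-values therefore describe the spread of these samples, which may be technical.

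MFS proteins are integral membrane carriers that move small molecules across a membrane, as uniporters or driven by an ion gradient, often that of protons. In fungi the family includes nutrient importers and exporters of drugs and polyamines. Polyamines such as spermidine and spermine are small cations that bind nucleic acids, and cells hold their level by synthesis, acetylation, uptake and export. Myo-inositol, the substrate of itr2, is a building block of membrane lipids that fission yeast cannot make and has to take up. The deposited annotation gives mfs3 spermine and spermidine transport, mfs1 spermine transport and both of them drug transport, while itr2 is a proton symporter for myo-inositol of the plasma membrane.

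Total gene counts were between 15329416 and 20050394 per library, and 3 counts corresponded to 0.147 to 0.193 CPM (counts scaled to the TMM-adjusted library size), far below every value of the 3 genes. Their raw counts were between 1926 and 21383 per library. The H2B gene itself, htb1, stood at 3215 ± 182 CPM in WT, 10798 ± 5362 for A, 1202 ± 74.0 for Q and 5687 ± 240 for R (SD, n = 3), an order other than that of the transporters; its part in the results below was not tested. All levels are relative to the RNA of a library, so a change of a transcript and a change of total RNA per cell cannot be told apart. The libraries numbered 2 of A, Q and R stood apart in earlier results of these data. By the chi-square per degree of freedom between libraries this was clear for R only, with 28.7 for replicates 1 and 3 against 169 and 149 for the pairs with replicate 2. For Q the value was 94.0 for replicates 1 and 3 against 158 and 106, and for A it was 112 for replicates 1 and 3 against 105 and 206, so that A replicate 3 was no nearer to the others than A replicate 2. Without the 3 libraries numbered 2, all 3 transporters were still called higher in A, Q and R.

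All 3 transporter transcripts rose in all 3 mutants. The rise was largest for mfs3, intermediate for mfs1 and smallest for itr2 in every mutant, and for each gene the mean was lowest in WT and highest in R. The means of A and Q lay between, Q above A, but the difference of Q from A changed sign for mfs3 without Q replicate 2 (log2 fold change of -0.00369) and for itr2 without A replicate 1 (-0.0225). A gene was called changed at a Benjamini-Hochberg adjusted p below 0.05 in edgeR's quasi-likelihood test over 5024 genes. Of the 3 members, 3 were called higher in A, against 2.73% of all tested genes (4.16% were called in either direction). The count was also 3 for Q, against 18.6%, and 3 for R, against 13.2%. Of all tested genes, 1.99% were called higher in each of the 3 mutants.

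**Figure D1:**
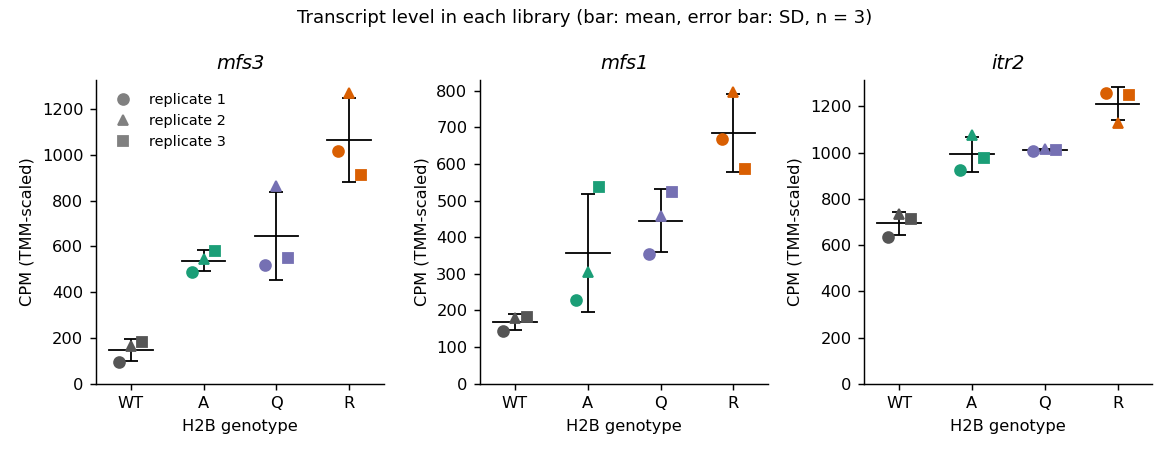
CPM of mfs3, mfs1 and itr2 (vertical axes, linear from 0) in each of 12 libraries, by H2B genotype (horizontal axis); symbols are replicates, bars the mean and error bars the SD of 3 libraries. For each gene every mutant library lies above every WT library, and the R libraries are the highest.

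The polyamine transporter gene mfs3 had 94.6, 165 and 183 CPM in WT replicates 1, 2 and 3. It had 488, 544 and 579 CPM in the A libraries, 520, 866 and 551 in the Q libraries, and 1017, 1269 and 912 in the R libraries. The lowest mutant library was thus well above the highest WT library, Q replicate 2 stood apart from the other Q libraries, and all 3 R libraries were above every library of A, Q and WT. The mean of mfs3 was 147 ± 46.6 CPM for WT, 537 ± 45.8 for A, 646 ± 191 for Q and 1066 ± 183 for R (SD, n = 3). The fitted rise was 3.64-fold in A (95% interval 2.48 to 5.35; log2 fold change 1.86, SE 0.25, adjusted p = 0.00714). In Q it was 4.38-fold (2.97 to 6.45; log2 fold change 2.13, SE 0.26, adjusted p = 0.00197). R gave the largest rise, 7.24-fold (4.86 to 10.8; log2 fold change 2.86, SE 0.26, adjusted p = 7.53e-05). The calls in Q and R held in each fit that left out 1 library, with log2 fold changes of 1.86 to 2.32 in Q and 2.62 to 3.04 in R. In A, mfs3 was no longer called once WT replicate 2 was left out (adjusted p = 0.0519).

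The spermine transporter gene mfs1 had 143, 181 and 182 CPM in the WT libraries. It had 228, 305 and 536 CPM in A replicates 1, 2 and 3, 353, 459 and 523 for Q, and 668, 797 and 587 for R. The A libraries spread widely and overlapped the Q range, whereas the R libraries were again above all others. The mean of mfs1 was 169 ± 22.2 CPM for WT, 356 ± 160 for A, 445 ± 85.8 for Q and 684 ± 106 for R. The rise was 2.11-fold in A (95% interval 1.41 to 3.16; log2 fold change 1.08, SE 0.27, adjusted p = 0.0456), close to the threshold. It was 2.64-fold in Q (1.76 to 3.96; log2 fold change 1.40, SE 0.27, adjusted p = 0.00528) and 4.05-fold in R (2.68 to 6.12; log2 fold change 2.02, SE 0.27, adjusted p = 0.000994). The call in A rested on nearly every library. It was lost without WT replicate 1, 2 or 3 (adjusted p = 0.173, 0.117 and 0.143), without A replicate 2 or 3 (0.0882 and 0.107) and in limma on FPKM values (0.0555). DESeq2 (adjusted p = 0.00258) and the fit with the replicate number as a block (0.0188) kept the call. Over all genes, the fits without WT replicate 1, 2 or 3 called 4, 2 and 7 in A, against 209 with all libraries. Without A replicate 3, the highest A library, the log2 fold change in A was 0.66. No single library decided the calls of mfs1 in Q and R.

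The myo-inositol transporter gene itr2 was the most abundant of the 3 genes and changed least. It had 636, 732 and 712 CPM in WT, 925, 1075 and 976 for A, 1005, 1016 and 1009 for Q, and 1258, 1129 and 1247 for R. The groups did not overlap between WT and any mutant, and the Q libraries were nearly equal. The mean of itr2 was 694 ± 50.8 CPM for WT, 992 ± 76.5 for A, 1010 ± 5.20 for Q and 1211 ± 71.1 for R. The rise was 1.43-fold in A (95% interval 1.22 to 1.68; adjusted p = 0.0253), 1.46-fold in Q (1.24 to 1.71; adjusted p = 0.00535) and 1.75-fold in R (1.48 to 2.06; adjusted p = 0.000949). For itr2 in A the call did not survive leaving out WT replicate 1, 2 or 3 (adjusted p = 0.136, 0.0793 and 0.113) or A replicate 2 or 3 (0.0809 and 0.0590). Its log2 fold change in A was 0.455 to 0.564 when 1 library was left out, against 0.516 with all. Over all genes, the fits without WT replicate 1, 2 or 3 called 4, 2 and 7 in A, against 209 with all libraries. No single library decided the calls of itr2 in Q and R.

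All mutant libraries lay above all WT libraries for each of the 3 genes, a pattern that 11.9% of tested genes showed. The authors' deposited tables give log2 ratios of mean FPKM of 1.83, 2.14 and 2.77 for mfs3 in A, Q and R, of 1.03, 1.42 and 1.93 for mfs1, and of 0.48, 0.57 and 0.71 for itr2. The highest FDR among these 9 comparisons in the authors' deposited tables was 0.000908, for mfs1 in A. On both scales the order of the genes and of the mutants was the same.

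Between mutants, R was above A and above Q for all 3 genes, with no overlap of libraries. Every R library exceeded each of the other 9 libraries for mfs3, mfs1 and itr2, which held for 2.37% of tested genes; 13.0% had every R library above every A library and 9.16% had every R library above every Q library. The tests of these differences fell short of the threshold. From A to R mfs3 differed 1.99-fold (95% interval 1.37 to 2.89; adjusted p = 0.0544), mfs1 1.92-fold (1.29 to 2.87; adjusted p = 0.0779) and itr2 1.22-fold (1.04 to 1.44; adjusted p = 0.144). edgeR called 0 of the 3 between R and A, where 2.47% of all genes were called (0.876% higher and 1.59% lower in R). All 3 had an unadjusted p below 0.05, as had 1150 of the 5024 tested genes. DESeq2 called 3 (adjusted p = 0.0037 for mfs3, 0.0112 for mfs1 and 0.0463 for itr2), among 447 genes that it called in all. Deviations from the group means correlated between R and A libraries of equal replicate number (0.18, 0.32 and 0.19), for which the labels give no reason. With the replicate number as a block, shared by all groups in the fit, mfs3 (adjusted p = 0.0169) and mfs1 (0.0219) were called between R and A. itr2 was not called there (0.127), and that fit called 364 genes in all. None of the 3 was called with RLE scaling, without the filter on low counts or in limma on FPKM values. mfs1 was also called without A replicate 3 (0.00771).

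**Figure D2:**
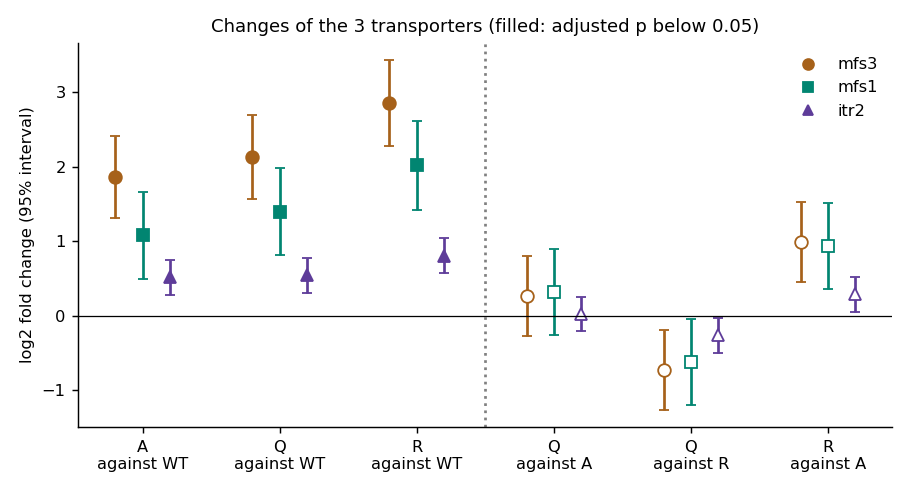
Fitted log2 fold changes (vertical axis) of mfs3, mfs1 and itr2 in 6 comparisons (horizontal axis); bars are 95% intervals and filled symbols have an adjusted p below 0.05 in edgeR. All 9 changes against WT are filled and above 0, while the 9 differences between mutants are open.

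Between Q and R the fitted ratios were nearer to 1. mfs3 in Q was at 0.61 times its level in R (95% interval 0.42 to 0.88; adjusted p = 0.140), mfs1 at 0.65 times (0.44 to 0.97; adjusted p = 0.225) and itr2 at 0.83 times (0.71 to 0.98; adjusted p = 0.210). edgeR and DESeq2 each called 0 of the 3 between Q and R, where edgeR called 3.64% of all genes (2.07% higher and 1.57% lower in Q). All 3 had an unadjusted p below 0.05, as had 991 of the 5024 tested genes. Without Q replicate 2, in which mfs3 was highest among the Q libraries, mfs3 was called (adjusted p = 0.0477). Between Q and A the libraries overlapped for all 3 genes, whereas 8.60% of tested genes had every Q library above every A library. The intervals of the ratio of Q to A ran from 0.83 to 1.74 for mfs3, from 0.84 to 1.86 for mfs1 and from 0.87 to 1.20 for itr2. There edgeR and DESeq2 each called 0 of the 3, and edgeR called 0.0398% of all genes. None of the 3 had an unadjusted p below 0.05, while 926 of the 5024 tested genes had.

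Levels of different genes were compared as FPKM, which is scaled for gene length. itr2 was the highest of the 3 genes in each of the 12 libraries, at 319 ± 25.3 FPKM in WT and 522 ± 12.4 in R. mfs1 stood at 77.5 ± 10.4 FPKM in WT and mfs3 at 56.3 ± 17.8. In R, mfs3 reached 383 ± 79.7 FPKM and mfs1 295 ± 55.8. Within a library, the FPKM ratio of mfs3 to mfs1 was 0.55, 0.76 and 0.83 in WT, below 1 in each library. It was 1.27, 1.33 and 1.29 in R, above 1 in each library. In A the ratios were 1.78, 1.49 and 0.90, and in Q they were 1.22, 1.57 and 0.88. The order of the polyamine transporter transcripts thus was mfs1 above mfs3 in every WT library and mfs3 above mfs1 in every R library. In A and Q, mfs3 was above mfs1 in the libraries numbered 1 and 2 and below it in those numbered 3.

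**Figure D3:**
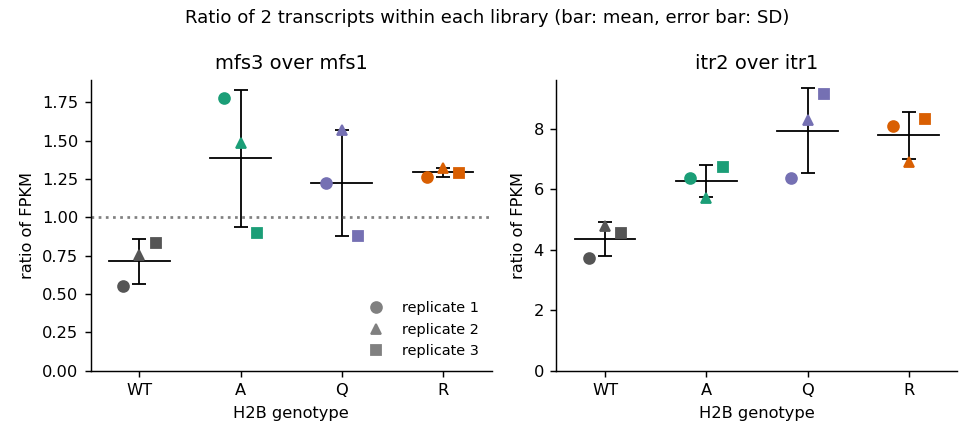
Ratio of FPKM within each library (vertical axes, linear from 0) of mfs3 to mfs1 (left) and of itr2 to itr1 (right), by H2B genotype; symbols are replicates, bars the mean and error bars the SD of 3 libraries, and the dotted line on the left marks equal levels. The mfs3 to mfs1 ratio is below 1 in WT and above 1 in R, and the itr2 to itr1 ratio is above WT in every mutant library.

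The genome holds a second myo-inositol transporter gene, itr1 (SPAC4F8.15), and it was not called in any mutant with all libraries (in Q it was called lower without Q replicate 1, adjusted p = 0.0258). itr1 was at 199 ± 11.5 CPM in WT, 198 ± 31.0 for A, 162 ± 30.3 for Q and 194 ± 8.61 for R, with log2 fold changes of -0.01 (95% interval -0.32 to 0.31), -0.30 (-0.61 to 0.01) and -0.03 (-0.34 to 0.28) in A, Q and R. The FPKM ratio of itr2 to itr1 within a library was 3.74, 4.80 and 4.54 in WT. It was 6.37, 5.72 and 6.75 for A, 6.39, 8.29 and 9.14 for Q, and 8.10, 6.91 and 8.33 for R. Every mutant library thus had a higher ratio than every WT library.

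The files annotate 7 further genes as spermidine or spermine family transporters, a list drawn up after the values were seen. None of the 7 was called higher in any mutant, and 0, 2 and 2 were called lower in A, Q and R, where 1.43%, 15.8% and 11.1% of all tested genes were called lower. Their median log2 fold changes were -0.27, -0.76 and -0.53, against 0.01, 0.02 and -0.01 for all tested genes. The largest fall was that of caf5 (SPBC609.04), a spermine family transporter linked to caffeine resistance, from 151 ± 24.0 CPM in WT to 35.9 ± 11.7 in Q (log2 fold change -2.07, adjusted p = 0.00528) and 61.8 ± 22.3 in R (-1.29, adjusted p = 0.0339). The call of caf5 in R was lost without WT replicate 1 (0.108), WT replicate 2 (0.0597), WT replicate 3 (0.0771), R replicate 2 (0.120) or R replicate 3 (0.0537). SPBC409.08 fell in Q (289 ± 20.5 to 166 ± 26.9 CPM, adjusted p = 0.00970). SPBC947.06c fell in R (24.8 ± 2.50 to 17.2 ± 2.80 CPM, adjusted p = 0.0462), a call that was kept only without R replicate 2 among the fits that left out 1 library (0.0904 to 0.136 in the other 5).

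**Figure D4:**
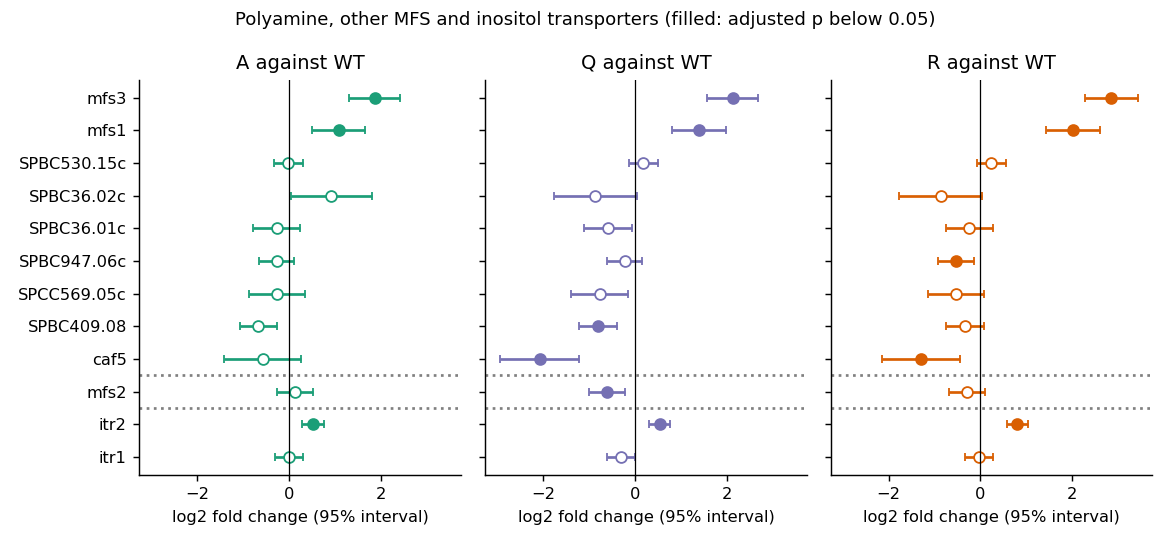
Fitted log2 fold changes (horizontal axes) of mfs3, mfs1 and 7 other polyamine transporter genes (top), of mfs2 (middle) and of the inositol transporter genes itr2 and itr1 (bottom) in A, Q and R against WT; bars are 95% intervals and filled symbols have an adjusted p below 0.05 in edgeR. mfs3, mfs1 and itr2 are the only filled symbols above 0.

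Of the MFS genes left out by the rule, mfs2 (SPAC11D3.05), a predicted MFS transporter, was at 111 ± 6.37 CPM in WT, 122 ± 28.3 for A, 73.1 ± 11.8 for Q and 90.8 ± 13.6 for R. Its log2 fold changes were 0.14 (adjusted p = 0.680), -0.60 (0.0244) and -0.29 (0.249). The fall in Q was not called without WT replicate 1 (0.0690), WT replicate 2 (0.0643), WT replicate 3 (0.0530), Q replicate 2 (0.0854) or Q replicate 3 (0.0578). The other, SPBPB2B2.16c, did not pass the filter on low counts.

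Among the 172 tested genes described as transmembrane transporters, members included, 8 were called higher and 2 lower in A. The counts were 27 and 47 for Q and 26 and 24 for R. As shares, 4.65%, 15.7% and 15.1% of these transporters were called higher in A, Q and R, against 2.73%, 18.6% and 13.2% of all tested genes, and 1.16%, 27.3% and 14.0% were called lower, against 1.43%, 15.8% and 11.1%. When 1 library was left out, 0 to 6 were called higher in A, 15 to 28 in Q and 8 to 24 in R, and 0 to 1, 24 to 39 and 8 to 22 were called lower. The median log2 fold changes were -0.10, -0.21 and -0.13. mfs3 had the largest rise of the 172 in each of the 3 mutants. mfs1 ranked 7, 6 and 3 in A, Q and R, and itr2 ranked 23, 27 and 14. Of all 5024 tested genes, mfs3 ranked 13, 35 and 11. 7 of the 172 transporters (4.07%) were called higher in all 3 mutants, against 1.99% of all tested genes, and these 7 include the 3 members. Beside the 3 members these were SPAC869.05c, SPAPB1E7.08c, the M-factor exporter gene mam1 and the mitochondrial pyruvate carrier gene mpc1. Their calls in A depended on single libraries: of the 6 fits that left out 1 library, 0 kept that of SPAC869.05c, 1 that of SPAPB1E7.08c, 2 that of mam1 and 0 that of mpc1. Of the members, 1 such fit kept the call of mfs1 in A, 1 that of itr2 and 5 that of mfs3. Over all genes these fits called 2 to 97 in A, against 209 with all libraries. In R 2 of 6 such fits kept the call of SPAC869.05c and 3 that of mpc1, and in Q 2 kept that of SPAC869.05c.

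**Figure D5:**
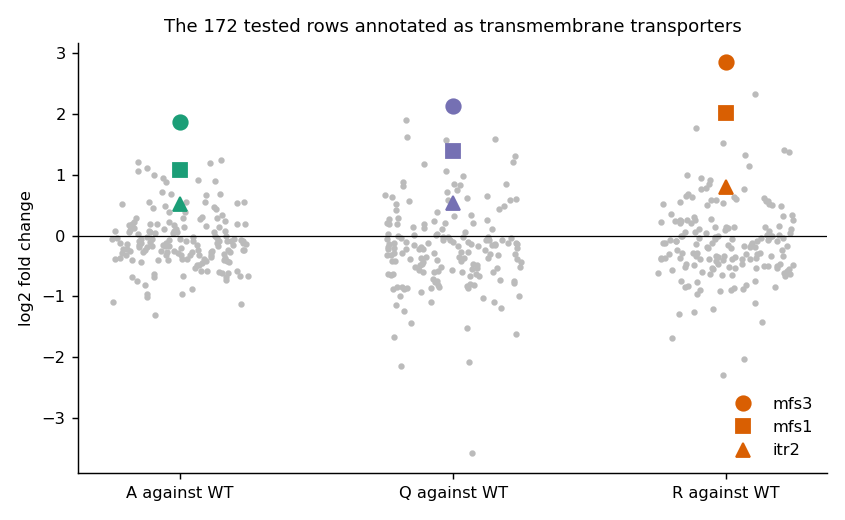
Fitted log2 fold changes (vertical axis) of the 172 tested genes described as transmembrane transporters in A, Q and R against WT; grey points are other transporters, spread sideways only for visibility, and large symbols are mfs3, mfs1 and itr2. mfs3 is the highest point in each mutant.

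Of the 6 genes next to a member, none was called higher in any mutant. Among all tested genes, 2.73%, 18.6% and 13.2% were called higher in A, Q and R. Of the 6 neighbours, 0, 3 and 1 were called lower, against 1.43%, 15.8% and 11.1% of all tested genes. No difference from these shares was tested. mfs3 lies beside SPBC36.02c. That gene and SPBC36.01c, which has the preceding identifier, are described as spermidine family transporters. SPBC36.02c, on the same strand as mfs3, was at 12.4 ± 2.40 CPM in WT, 23.5 ± 15.03 for A, 6.84 ± 1.02 for Q and 6.82 ± 1.61 for R, and SPBC36.01c at 131 ± 12.3, 109 ± 28.0, 87.9 ± 22.1 and 111 ± 30.1 CPM. Neither was called in A, Q or R. On the other side of mfs3, cys11, a cysteine synthase gene, had log2 fold changes of 0.36, 0.14 and 0.17 and was not called. Beside mfs1, SPAC9E9.15 was not called (log2 fold changes of -0.02, -0.14 and -0.31), and SPAC17C9.15c was lower in Q (-0.68, adjusted p = 0.00535) and R (-0.75, adjusted p = 0.00456) and not called in A (-0.49, adjusted p = 0.0573). Beside itr2, SPAC20G8.02 (-0.50, adjusted p = 0.0421) and cir2 (-0.79, adjusted p = 0.0277), which encodes a predicted mitochondrial electron transfer flavoprotein-ubiquinone oxidoreductase, were lower in Q and not called in A or R. These last calls in Q were lost without some single libraries, with adjusted p up to 0.129 and 0.0943.

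Each of mfs3, mfs1 and itr2 overlaps at least 1 annotated noncoding RNA on the opposite strand in the reference annotation, and the end of itr2 overlaps that of cir2. The handling of strand in the counting is not given in the sources used here, so reads of a gene and of its antisense partner cannot be told apart. No copy of any of the 3 genes was found elsewhere in the reference genome at 95% identity over 50% of the gene, so their counts are not shared with a near-identical gene.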

How the data were processed

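Per the labels' protocols, a Trizol kit was used for extraction and oligo(dT) for mRNA, before cDNA was made, amplified and sequenced. Tools listed without a role in the submitters' processing notes include HISAT2, StringTie, RSEM and DESeq2. The build, annotation and use of strand are not given there, so neither coordinates nor sequences are printed. The deposited tables hold whole-number counts and FPKM values per gene and library, per the file headers. By their values, the log2 ratios the authors deposited compare group means of FPKM, and the deposited p-values and FDR come from the authors' own test.

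Counts of all 12 libraries were fitted with edgeR 4.0.16 (R 4.3.3): filterByExpr kept 5024 of 5160 genes, libraries were scaled with TMM, group was the only term, and 6 contrasts were tested with Benjamini-Hochberg adjustment over all tested genes. SEs and 95% intervals were derived from the F statistic and are approximate. CPM are TMM-scaled. The fit was tested on simulated data with known changes in R and independent libraries. The correlation between libraries of equal replicate number was not part of that simulation, so it does not bear on its effect. Intervals and the floor of 3 counts do not cover errors other than those of counting and replicate spread. No replicate pair agreed within sampling noise (chi-square per degree of freedom 15.9 to 206).

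Alternatives were DESeq2 1.42.0, RLE scaling, no filter, the 2 groups alone, a replicate block, limma 3.58.1 on log2(FPKM + 1), each library left out, and the libraries numbered 2 of the mutants left out together. Replicate numbers were taken to pair 2 groups where the deviations from the group means correlated above 0.1 in all 3 pairs. This held for Q and R (0.32, 0.40 and 0.29) and for R and A (0.18, 0.32 and 0.19). The labels give no reason for a pairing. The block was 1 term shared by all libraries, so it also covered pairs of groups where this did not hold.

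The reference (RefSeq ASM294v3; 5109 gene identifiers matched, 51 did not) served for names, neighbours, overlaps and, with BLAST 2.17.0, copies. The rule for genes named took members called in any comparison, which covers all 3. The neighbours and the lists of other transporters and of polyamine genes were taken from annotation after values were seen. Lists of ABC transporters, of Pap1-linked, of iron and of copper genes were written from general knowledge. The members, lists and alternatives were chosen with earlier results of these data known.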

Additional observations from a re-analysis of the deposited data

How the results depend on the processing

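In Q and R against WT, 3 of 3 members were called under every alternative run. In A against WT, 3 were called in all alternatives with all libraries except limma on FPKM, which called 2, and between 0 and 3 were called when 1 library was left out: 0 when WT replicate 2 was out, 1 when it was WT replicate 1 or 3 or A replicate 2 or 3, and 3 when it was A replicate 1. Over all genes these fits called 2 to 97, against 209 with all libraries, 560 by DESeq2, 933 with the 2 groups alone, 464 with the replicate block and 650 without the libraries numbered 2; the cause was not tested. Between R and A the corresponding counts were 124, 447, 96, 364 and 464, and for Q against R they were 183, 345, 42, 207 and 882. Between R and A, where 0 members were called, DESeq2 called 3, the fit of the 2 groups alone called 1, the replicate block called 2, the fit without the libraries numbered 2 called 1, and leaving out 1 library gave 0 to 1. Between Q and R, the fit without the libraries numbered 2 called 1 and leaving out 1 library gave 0 to 1 (1 without Q replicate 2), against 0. The replicate block changed no other count of members called. Between Q and A, 0 were called in each alternative. No called log2 fold change of a member changed sign. limma on FPKM shifted the median of all genes by -0.10 in R against WT and by 0.13 between Q and R, and changes on that scale are relative to it. Every count of the 3 genes was far above the floor of 3 counts; with 3 libraries per group, what limits the calls was not tested.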

Other observations

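Polyamine enzymes and regulators, taken by annotation text after values were seen, were called in both directions. Among 12 such genes, A had 0 calls up and 1 down, Q had 2 and 4, and R had 0 and 4, with median log2 fold changes of -0.01, -0.22 and -0.53. Of all tested genes, 2.73%, 18.6% and 13.2% were called higher in A, Q and R, and 1.43%, 15.8% and 11.1% lower. When 1 library was left out, the genes of this list called lower numbered 0 in A, 3 to 4 in Q and 2 to 3 in R, and those called higher in Q numbered 1 to 2. In R the count was 2 without WT replicate 1, 2 or 3 or R replicate 2, since the predicted N-acetyltransferase gene ats1 and the antizyme gene spa1 were lost. SPAC9.02c, a predicted polyamine acetyltransferase gene, fell in all 3 mutants, from 127 ± 1.89 CPM in WT to 69.9 ± 2.20 in A (adjusted p = 0.0253), 66.3 ± 8.09 in Q (0.00528) and 72.6 ± 20.9 in R (0.0117). Its call in A was lost without any 1 of the 6 libraries (0.0669 to 0.111), and those in Q and R were kept in each such fit. SPAC11D3.09, a predicted agmatinase gene, fell from 32.8 ± 0.48 CPM to 16.4 ± 0.51 in Q and 16.6 ± 1.14 in R and was not called in A, while a second one, SPBC8E4.03, rose in Q from 122 ± 18.6 to 238 ± 58.6 CPM. The synthesis genes spe1 (ornithine decarboxylase), spe2 (S-adenosylmethionine decarboxylase) and srm1 (spermidine synthase) were not called in any mutant.

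The lists that follow stand against shares of all tested genes called higher of 2.73%, 18.6% and 13.2% in A, Q and R. The shares called lower were 1.43%, 15.8% and 11.1%. Of 9 names listed as ABC transporters, 1 was called higher in A, 4 higher and 1 lower in Q, and 2 higher in R. In Q 2 were called higher when WT replicate 2 or 3 or Q replicate 2 was out, where abc2 and hmt1 were lost. In A the call, that of mam1, was lost without any 1 WT library or A replicate 2, and in R 1 to 3 were called higher, with 1 when WT replicate 1 or 3 or R replicate 2 was out. The name abc1 stands in the files for a ubiquinone biosynthesis kinase. The multidrug exporter genes pmd1 and bfr1 were not called, and pdr1 was lower in Q (246 ± 37.8 to 79.8 ± 4.75 CPM, adjusted p = 0.0069). Of 12 genes of the Pap1 oxidative stress response, 0 were called in A, 1 higher and 4 lower in Q, and 1 higher in R. Without Q replicate 2 the counts in Q were 0 higher and 1 lower, with obr1, ctt1, tpx1 and gst3 lost, and without WT replicate 1 or 3 they were 0 and 2. The 1 called in R, gst3, was lost when WT replicate 1 or 3 or R replicate 2 was out. pap1 itself had log2 fold changes of -0.01, -0.18 and -0.09 and was not called. Of 4 tested copper genes, 1, 2 and 2 were called higher in A, Q and R, among them the copper transporter subunit gene ctr5 in all 3 (82.5 ± 20.6 CPM in WT and 191 ± 17.8 in R). Its call in A was kept in only 1 of the 6 fits that left out a library. Of 9 tested iron genes, 0, 1 and 3 were called lower and none higher. The iron gene called in Q, fio1, was lost when WT replicate 1 or Q replicate 2 or 3 was out. In R 1 was called without WT replicate 1 and 2 without R replicate 2. The copper counts fell to 1 in Q when WT replicate 1 or 3 or Q replicate 1 was out, and in R when WT replicate 1 or 2 or R replicate 2 was out.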
